A study of Homo sapiens with 12 samples.

Results

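The genes of the proteasome symbol families were followed in SUDHL6 cells, a human line established from a germinal centre type diffuse large B-cell lymphoma. Members are the symbols made of PSM, a letter from A to G and a digit, with at least 1 CPM (reads of a gene scaled to a common library total) in 3 or more of the 12 libraries. The pattern matched 49 of the 23368 symbols counted, and 48 were kept. PSMB11, the thymus-specific catalytic subunit, had between 0 and 4 reads in every library and was not kept. PSMC3IP matches by its name only: it encodes a partner of the meiotic recombinases. It is counted among the 48 members, while summed levels cover the other 47.

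The groups were GSK591 at 200 nM for 24 h, vehicle (0.01% DMSO) for 24 h, GSK591 at 200 nM for 96 h and vehicle (0.01% DMSO) for 96 h, with 3 libraries each. GSK591 inhibits PRMT5, the enzyme that makes most symmetric dimethylarginine in cells. All libraries were made from poly(A) RNA of this 1 line. No label states whether libraries of a group come from separate cultures, so a p-value here measures the spread between libraries, which may be technical.

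The proteasome degrades proteins that carry ubiquitin chains. Its 20S core is a barrel of alpha rings, which gate the entrance, and beta rings, which hold the catalytic sites. The 19S cap binds the chain, unfolds the protein with a ring of ATPases and feeds it into the core. Chaperones help to assemble the rings and the cap and then leave. In lymphoid cells and under interferon, the catalytic subunits PSMB8, PSMB9 and PSMB10 can replace PSMB5, PSMB6 and PSMB7, and this immunoproteasome cuts peptides that are loaded on MHC class I molecules. The transcription factor NFE2L1 drives most proteasome genes when the proteasome is inhibited.

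Promoter windows are shown for some members, whether or not their levels differed between groups. These are the 3 immunoproteasome genes, the assembly chaperone PSMG4, the interferon-inducible cap subunit PSME2 and the 19S cap subunit PSMD6. They are RefSeq sequences of build GRCh38.p14, the 250 bases before the most upstream start listed for the gene, read 5′ to 3′ on its strand. Other listed starts were not searched. Capitals mark matches, on either strand, to the antioxidant response element core TGACNNNGC, the interferon-stimulated response element (GAAA, any 2 bases and GAAA again), the CCAAT box CCAAT and the ETS core CCGGAAG. The windows are chr6:32844680-32844929 (minus strand), chr6:32853942-32854191 (plus), chr16:67936851-67937100 (minus), chr6:3258697-3258946 (plus), chr14:24146611-24146860 (minus) and chr3:64023495-64023744 (minus).
PSMB8: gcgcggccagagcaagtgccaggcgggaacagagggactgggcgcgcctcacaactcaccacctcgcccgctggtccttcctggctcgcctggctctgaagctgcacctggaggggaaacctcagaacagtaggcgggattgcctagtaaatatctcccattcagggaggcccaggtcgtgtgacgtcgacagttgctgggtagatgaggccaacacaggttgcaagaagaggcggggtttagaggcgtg
PSMB9: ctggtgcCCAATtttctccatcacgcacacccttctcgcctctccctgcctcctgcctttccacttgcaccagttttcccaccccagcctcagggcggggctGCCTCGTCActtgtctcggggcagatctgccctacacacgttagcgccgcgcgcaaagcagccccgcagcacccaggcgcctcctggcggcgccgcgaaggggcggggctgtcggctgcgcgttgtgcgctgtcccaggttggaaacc
PSMB10: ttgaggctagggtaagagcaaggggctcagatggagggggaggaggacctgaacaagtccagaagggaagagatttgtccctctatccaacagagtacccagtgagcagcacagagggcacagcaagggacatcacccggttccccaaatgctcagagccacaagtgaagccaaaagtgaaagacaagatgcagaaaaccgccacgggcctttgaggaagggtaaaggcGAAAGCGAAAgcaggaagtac
PSMG4: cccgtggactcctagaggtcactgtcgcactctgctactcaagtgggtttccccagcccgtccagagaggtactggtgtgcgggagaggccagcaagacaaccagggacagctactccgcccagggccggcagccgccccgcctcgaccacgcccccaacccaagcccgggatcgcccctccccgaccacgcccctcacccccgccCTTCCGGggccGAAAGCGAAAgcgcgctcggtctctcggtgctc
PSME2: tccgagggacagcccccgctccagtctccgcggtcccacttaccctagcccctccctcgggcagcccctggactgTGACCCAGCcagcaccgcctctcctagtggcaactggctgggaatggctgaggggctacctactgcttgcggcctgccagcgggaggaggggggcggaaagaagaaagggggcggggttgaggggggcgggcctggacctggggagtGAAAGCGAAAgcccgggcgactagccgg
PSMD6: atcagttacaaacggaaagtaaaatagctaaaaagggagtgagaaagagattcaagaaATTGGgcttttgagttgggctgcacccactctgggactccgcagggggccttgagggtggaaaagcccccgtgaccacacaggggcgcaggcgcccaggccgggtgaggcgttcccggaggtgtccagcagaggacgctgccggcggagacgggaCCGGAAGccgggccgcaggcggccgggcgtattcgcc

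GAAAGCGAAA stood 21 bases before the start in PSMB10, 28 in PSME2 and 33 in PSMG4. PSMB9 held TGACNNNGC on the opposite strand, as GCCTCGTCA, 148 bases before the start, and PSMB8 held none of the 4 motifs in its window. A window was found for 42 of the 48 members. The interferon-stimulated response element matched in 5 of them (11.9%), which were PSMA4, PSMB4, PSMB10, PSME2 and PSMG4, and in 3.07% of all 27305 promoters. TGACNNNGC matched in 11 members (26.2%) and in 11.1% of all promoters. CCGGAAG matched in 10 members (23.8%) and in 8.78% of all promoters, and CCAAT in 18 members (42.9%) and in 33.0%. A match is a string of letters in this window and no measurement of binding.

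Depth was 48.5 to 64.4 M reads counted in genes (M, mega) for 11 libraries and 547.9 M for the 96 h vehicle replicate 1. Summed CPM of 6 B-cell markers lay between 6981 and 8154 in all libraries. Of 16 markers of other cell types (T cell, myeloid, fibroblast, epithelial), CD14 had the highest group mean, 0.855 CPM. Summed CPM of 4 germinal centre markers lay between 944 and 962 in GSK591 libraries at 96 h, against 746 and 767 in vehicle libraries, and between 763 and 776 in GSK591 libraries at 24 h, against 722 and 733 in vehicle libraries. The part of this shift in the results at either time was not tested. PRMT5, the target of the drug, was not called at either time, which is no check of the labels because GSK591 acts on the protein. Libraries numbered 2 at 96 h stood apart from the other 96 h libraries: with both left out, 60.5% of the genes tested were called at 96 h, against 40.2% with all 6. In RNA from whole cultures, fewer cells of a kind and less RNA per cell cannot be told apart. Levels below are CPM after TMM scaling over the 12 libraries and compare libraries, not genes, because they are not divided by gene length. "Called" means an adjusted p under 0.05 in edgeR's quasi-likelihood test over all genes tested, and "rose" and "fell" are used of called genes only.

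Divided by the length of 1 transcript per gene, the longest principal one, levels in vehicle cells at 24 h spanned a wide range. That length was 998 bases for PSME3 and 4411 for PSMA4, and the order of genes depends on it. Which transcripts the cells use was not measured, and the SD covers libraries only. Undivided, PSMD2 had 308 CPM and PSME3 295. PSME3, PSMB4 and PSMB1 were highest, at 296 ± 6.14, 220.2 ± 3.08 and 159 ± 1.46 CPM per kilobase (SD, n = 3 each). The medians were 117 for the constitutive beta ring, 103 for the alpha ring, 94.5 for the alternative caps, 82.6 for the non-ATPase and 68.7 for the ATPase subunits of the 19S cap, 35.3 for the immunoproteasome and 26.1 for the assembly chaperones. Within the immunoproteasome PSMB10 stood at 57.8 ± 2.11, PSMB8 at 35.3 ± 2.60 and PSMB9 at 8.92 ± 0.71 CPM per kilobase. Assembly chaperones lay between 13.5 (PSMD5) and 36.8 (PSMG4), below every member of the constitutive beta ring. PSMA8, at 0.398, was the lowest member.

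After 96 h of GSK591, 19 of the 48 members fell and 3 rose, where 19.6% and 20.7% of all genes tested did. The immunoproteasome subunits PSMB8 and PSMB10 fell (-29.8% and -33.9%), as did the assembly chaperones PSMG1 and PSMG4 (-33.4% and -31.2%), while the immunoproteasome subunit PSMB9 was not called. Of the constitutive catalytic subunits PSMB7 fell (-14.8%) and PSMB5 and PSMB6 were not called, nor were the cap regulators PSME1 and PSME2. The 3 that rose were PSMD6, PSMC4 and PSMA8. After 24 h, 2 members rose and 2 fell, 8.33% of the members against 14.7% of all genes tested. In vehicle cells 37 of the 48 members were lower at 96 h than at 24 h, where 23.5% of all genes tested were.

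**Figure D1:**
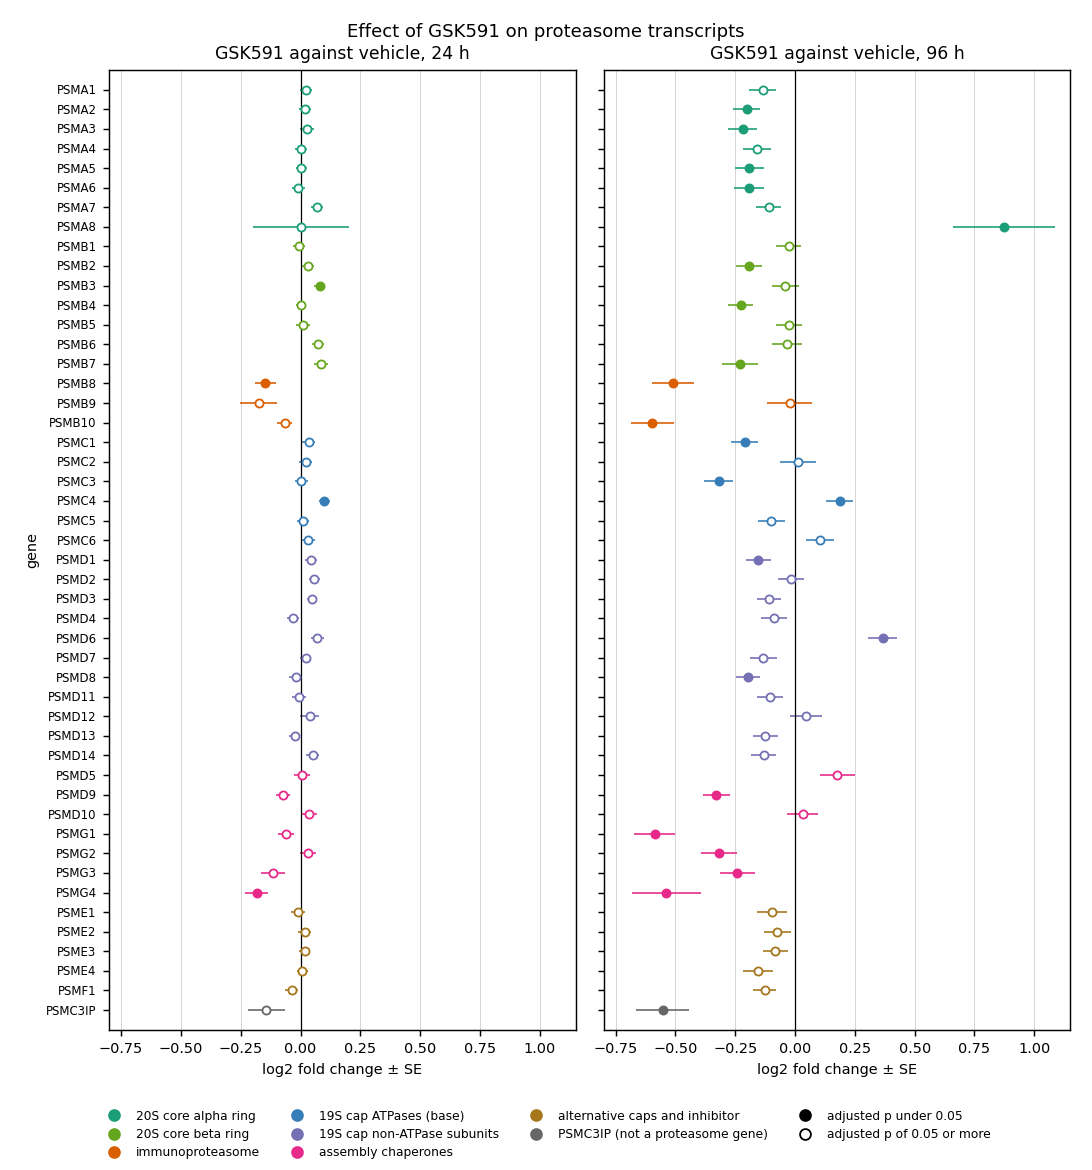
Log2 fold change of GSK591 over vehicle with its standard error (x axis) for each of the 48 members (rows, coloured by class) at 24 h (left) and 96 h (right); filled points have an adjusted p under 0.05. At 24 h all points lie between -0.18 and 0.10, and at 96 h 40 of 48 lie below 0, with PSMB10 and PSMG1 lowest and PSMA8 highest.

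Of all 13514 genes tested at 96 h, 40.2% were called, 20.7% as higher and 19.6% as lower. Among the members 45.8% were called, 3 as higher and 19 as lower. Without PSMC3IP 44.7% were called, 3 as higher and 18 as lower. The median log2 fold change of the members was -0.13, against 0.00 for all genes tested, and 40 of 48 lay below 0. The 2 groups did not overlap in 32 members that were lower and 3 that were higher with GSK591, against 30.7% and 24% of all genes tested (54.7% in both directions). The members' share called is near that of all genes, and their calls were split unevenly between the directions.

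Summed over the 47 proteasome genes, CPM averaged 4278 ± 165 in GSK591 libraries and 4712 ± 140.4 in vehicle libraries at 96 h (SD, n = 3 each), a difference of -9.20%. The sums by class differed by -30.4% for the immunoproteasome, -15.8% for the assembly chaperones, -12.4% for the alpha ring, -9.36% for the beta ring, -8.71% for the alternative caps with the inhibitor PSMF1, -6.21% for the non-ATPase subunits of the 19S cap and -4.49% for its ATPases. These sums carry no test. The immunoproteasome sum was 66.3, 82.8 and 76.3 CPM in GSK591 libraries, against 106.6, 110.3 and 107.0 CPM in vehicle libraries. All 3 GSK591 libraries lay below all 3 vehicle libraries, and replicate 2 lay nearest to them.

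**Figure D2:**
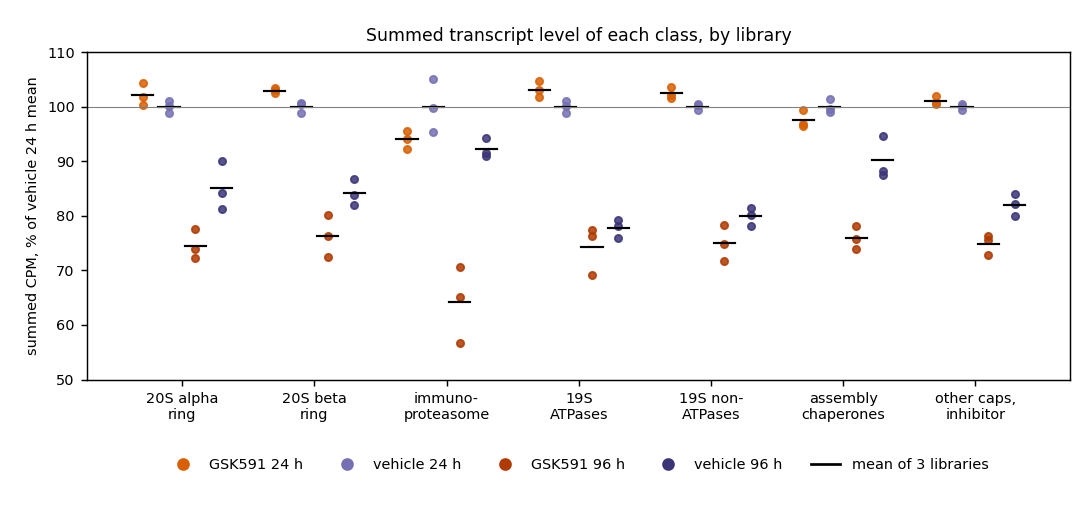
Summed CPM of each class (x axis) as a percentage of its mean in the 24 h vehicle libraries (y axis, from 50 to 110%); each point is 1 library and each bar the mean of 3. In the immunoproteasome class GSK591 libraries at 96 h averaged 64.2% and vehicle libraries 92.2%, and in the ATPases 74.3% and 77.8%.

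The immunoproteasome subunits did not move as a set. PSMB8, which replaces the chymotrypsin-like subunit, had 21.7, 27.1 and 24.1 CPM in GSK591 libraries at 96 h, against 34.7, 37.3 and 33.9 CPM in vehicle libraries. All GSK591 values lay below all vehicle values. PSMB8 fell by 0.51 ± 0.09 (log2, SE; edgeR adjusted p = 0.0030). PSMB10, which replaces the trypsin-like subunit, had 34.3, 45.2 and 39.8 CPM in GSK591 libraries, against 60.2, 62.2 and 61.4 CPM in vehicle libraries. Again the groups did not overlap, and GSK591 replicate 2 was the nearest to vehicle. PSMB10 fell by 0.60 ± 0.09 (adjusted p = 0.0022). PSMB9, which replaces the caspase-like subunit, had 10.2, 10.4 and 12.4 CPM in GSK591 libraries, against 11.7, 10.7 and 11.7 CPM in vehicle libraries. Its groups overlapped, and the log2 fold change was -0.02 ± 0.09 (adjusted p = 0.86).

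Of the constitutive counterparts, PSMB7 was called and PSMB5 and PSMB6 were not. PSMB5, the chymotrypsin-like subunit, had 52.8, 51.1 and 57.1 CPM in GSK591 libraries at 96 h, against 55.9, 56.1 and 54.5 CPM in vehicle libraries (log2 fold change -0.03 ± 0.05, adjusted p = 0.74). PSMB6, the caspase-like subunit, had 85.7, 77.8 and 90.9 CPM with GSK591, against 88.4, 90.2 and 86.0 CPM with vehicle (-0.03 ± 0.06, adjusted p = 0.69). In both genes the groups overlapped. PSMB7, the trypsin-like subunit, had 33.8, 33.3 and 35.0 CPM with GSK591, against 39.8, 45.0 and 37.2 CPM with vehicle, without overlap. It fell by 0.23 ± 0.07 (adjusted p = 0.035), and the adjusted p lay between 0.068 and 0.091 when vehicle replicate 1 or 2 or GSK591 replicate 1 or 3 was left out.

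**Figure D3:**
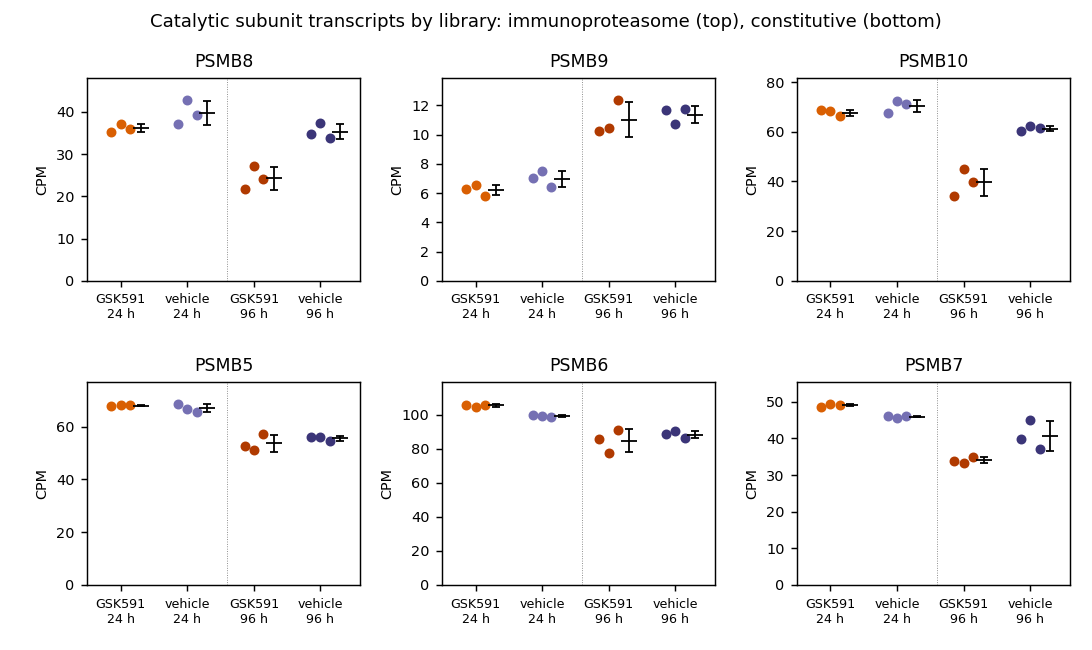
CPM (y axis, from 0) of the 3 immunoproteasome subunits (top) and the constitutive subunits they replace (bottom) in each group (x axis); points are libraries and bars the mean ± SD of 3. PSMB8 and PSMB10 are lower in all GSK591 libraries at 96 h than in any vehicle library, whereas PSMB9 is higher at 96 h than at 24 h in both treatments.

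The ratio of each pair of counts within a library does not depend on library scaling. With 3 libraries against 3, the exact two-sided permutation test cannot give a p under 0.1, so none of the 6 ratio tests could pass. PSMB8 over PSMB5 was 0.412, 0.531 and 0.421 in GSK591 libraries at 96 h, against 0.621, 0.665 and 0.622 in vehicle libraries, a log2 difference of -0.49 (exact p = 0.10, adjusted p = 0.15 over 6 tests). PSMB10 over PSMB7 was 1.01, 1.36 and 1.14 in GSK591 libraries, against 1.51, 1.38 and 1.65 in vehicle libraries, a log2 difference of -0.38 (exact p = 0.10, adjusted p = 0.15). In both pairs the groups did not overlap. PSMB9 over PSMB6 averaged 0.130 ± 0.0092 with GSK591 and 0.129 ± 0.0091 with vehicle (SD, n = 3 each; exact p = 0.80, adjusted p = 0.80). At 24 h the log2 differences were -0.16 for PSMB8 over PSMB5 (exact p = 0.20, adjusted p = 0.24), -0.25 for PSMB9 over PSMB6 and -0.15 for PSMB10 over PSMB7 (each exact p = 0.10, adjusted p = 0.15). Per kilobase of principal transcript, levels of PSMB10 and PSMB7 were similar in size: the ratio averaged 0.941 ± 0.139 with GSK591 and 1.22 ± 0.109 with vehicle at 96 h. The same ratio was 0.524 ± 0.0762 and 0.732 ± 0.0288 for PSMB8 over PSMB5, and 0.142 ± 0.0100 and 0.141 ± 0.0099 for PSMB9 over PSMB6.

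Assembly chaperones made up 5 of the 19 members that fell at 96 h, out of 7 tested, and their median log2 fold change was -0.32. Of all genes tested at 96 h, 19.6% fell. PSMG1, which pairs with PSMG2 to build the alpha ring, had 28.7, 33.2 and 29.8 CPM in GSK591 libraries, against 45.0, 52.0 and 43.3 CPM in vehicle libraries. It fell by 0.59 ± 0.09 (adjusted p = 0.0019). PSMG4, which pairs with PSMG3 at the same ring, had 13.1, 20.01 and 15.5 CPM with GSK591, against 22.5, 26.6 and 23.0 CPM with vehicle. The groups did not overlap in either gene, and in PSMG4 replicate 2 was the highest of both treatments. PSMG4 fell by 0.54 ± 0.14 (adjusted p = 0.018), with an adjusted p of 0.075 without vehicle replicate 2 and 0.065 without GSK591 replicate 3.

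PSMD9, a chaperone of the ATPase ring, had 37.3, 37.9 and 41.5 CPM with GSK591 at 96 h, against 49.8, 49.5 and 49.9 CPM with vehicle. All GSK591 values were below the narrow range of vehicle. It fell by 0.33 ± 0.06 (adjusted p = 0.0031). The other alpha ring chaperones, named after their values were seen, were PSMG2, which fell by 0.32 (adjusted p = 0.011), and PSMG3, which fell by 0.24 (adjusted p = 0.028). The ATPase ring chaperones PSMD5 (0.18, adjusted p = 0.076) and PSMD10 (0.03, adjusted p = 0.71) were not called. POMP, the chaperone that closes the core and is not in the PSM families, was not called either, at -0.07 ± 0.06 (adjusted p = 0.44).

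PSMD6, a lid subunit of the 19S cap, had 106, 92.98 and 109 CPM in GSK591 libraries at 96 h, against 81.3, 81.2 and 79.9 CPM in vehicle libraries. The groups did not overlap, and the vehicle values were within 2 CPM of each other. It rose by 0.37 ± 0.06 (log2, SE; adjusted p = 0.0030). PSMC4, an ATPase of the cap, had 118, 107 and 121 CPM with GSK591, against 104, 104 and 101 CPM with vehicle, and rose by 0.19 ± 0.06 (adjusted p = 0.027). This call was lost without any 1 of vehicle replicates 1, 2 and 3 and GSK591 replicates 1 and 3, with adjusted p between 0.064 and 0.11, and with no filter on low counts (adjusted p = 0.078). PSMA8, an alpha subunit of the testis proteasome, had 2.91, 1.84 and 2.88 CPM with GSK591, against 1.47, 1.10 and 1.61 CPM with vehicle. Its reads numbered 153, 125 and 161 in GSK591 libraries, against 826, 57 and 81 in vehicle libraries, the first of them being the deep library. It rose by 0.87 ± 0.21 (adjusted p = 0.012), a call lost without GSK591 replicate 3 (adjusted p = 0.0502), at a low level: only the 6 libraries of 96 h reached 1 CPM.

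**Figure D4:**
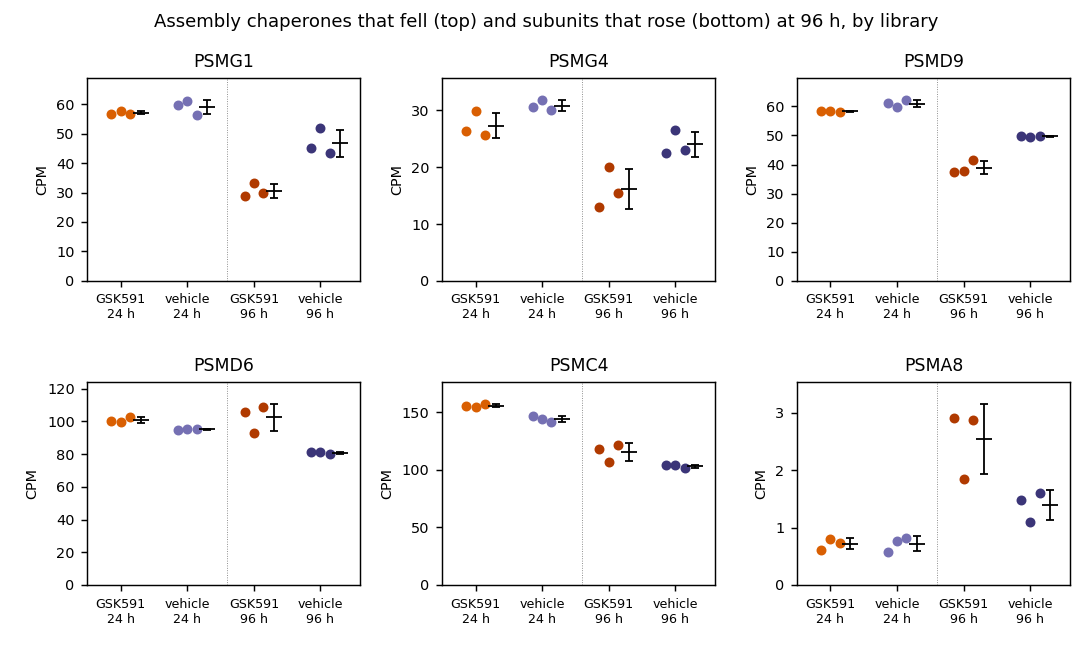
CPM (y axis, from 0) in each group (x axis) of the 3 assembly chaperones with the largest falls at 96 h (top) and the 3 members that rose at 96 h (bottom); points are libraries and bars the mean ± SD of 3. GSK591 and vehicle do not overlap at 96 h in any of the 6 genes, and GSK591 replicate 2 is nearest to vehicle in PSMG1, PSMG4, PSMD6, PSMC4 and PSMA8.

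The rest of the core and cap is given by class. At 96 h 19.6% of all genes tested fell and 20.7% rose. In the alpha ring 4 of 8 members fell besides the rise of PSMA8, with a median of -0.18. In the constitutive beta ring 3 of 7 fell, with a median of -0.04. Of the 6 ATPases 2 fell and 1 rose, and of the 11 other cap subunits 2 fell and 1 rose, with medians of -0.04 and -0.11. Named after their values were seen, the members that fell were PSMA2, PSMA3, PSMA5 and PSMA6 of the alpha ring, PSMB2, PSMB4 and PSMB7 of the beta ring, the ATPases PSMC1 and PSMC3 and the cap subunits PSMD1 and PSMD8. Among these PSMC3 had the largest fall: it had 76.9, 81.2 and 84.5 CPM with GSK591, against 99.3, 109.7 and 99.1 CPM with vehicle, and fell by 0.32 (adjusted p = 0.0046). The other 10 fell by 0.15 to 0.23.

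None of the 5 alternative cap and inhibitor genes was called at 96 h, and 4 of the 5 did not overlap between the groups, lower with GSK591. Of all genes tested, 30.7% were lower without overlap, and 54.7% did not overlap counting both directions. PSME1 and PSME2 form the interferon-inducible cap that opens the core without ATP. PSME1 had 129, 115 and 136 CPM with GSK591, against 139, 141 and 135 CPM with vehicle (log2 fold change -0.10 ± 0.06, adjusted p = 0.25). PSME2 had 120.4, 111 and 124 CPM with GSK591, against 126, 129 and 125 CPM with vehicle (-0.07 ± 0.05, adjusted p = 0.30). In both, GSK591 replicate 2 was the lowest library. PSMC3IP, the recombination gene, had 4.0002, 4.20 and 3.73 CPM with GSK591, against 5.63, 6.57 and 5.67 CPM with vehicle, and fell by 0.55 ± 0.11 (adjusted p = 0.0058).

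At 24 h the effects were small. Of all 13173 genes tested 14.7% were called, 7.44% as higher and 7.29% as lower, and of the members 8.33%. The median log2 fold change of the members was 0.01, against 0.00 for all genes. The groups did not overlap in 12 members that were higher and 2 that were lower with GSK591, against 19.2% and 13.6% of all genes (32.7% in both directions). Of the 12, 6 were non-ATPase subunits of the cap. Summed over the 47 proteasome genes CPM averaged 5827 ± 58.1 with GSK591 and 5720 ± 43.7 with vehicle (SD, n = 3 each), a difference of 1.88% that became -0.164% when libraries were scaled by their totals alone.

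PSMC4 had 155, 154 and 157 CPM with GSK591 at 24 h, against 147, 144 and 141 CPM with vehicle, and rose by 0.10 ± 0.02 (adjusted p = 0.0091). PSMB3, a structural subunit of the beta ring, had 119.7, 119.7 and 121 CPM with GSK591, against 112, 113 and 113 CPM with vehicle, and rose by 0.08 ± 0.02 (adjusted p = 0.032). In both the groups did not overlap. PSMG4 had 26.5, 29.9 and 25.7 CPM with GSK591, against 30.6, 31.9 and 30.1 CPM with vehicle, without overlap, and fell by 0.18 ± 0.05 (adjusted p = 0.013). PSMB8 had 35.3, 37.1 and 35.9 CPM with GSK591, against 37.1, 42.9 and 39.2 CPM with vehicle. The highest GSK591 value and the lowest vehicle value were both near 37.1 CPM, so the groups just overlapped, and it fell by 0.15 ± 0.04 (adjusted p = 0.027). The calls of PSMB8, PSMG4 and PSMB3 were each lost when any of 3 or 4 single libraries was left out, and all 4 calls were lost when the spread was estimated from all 12 libraries, where 29 genes were called in all.

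The other catalytic subunits were not called at 24 h. PSMB9 had 6.26, 6.54 and 5.82 CPM with GSK591, against 7.01, 7.51 and 6.40 CPM with vehicle (-0.17 ± 0.08, adjusted p = 0.14). PSMB10 had 68.6, 68.2 and 66.4 CPM with GSK591, against 67.5, 72.5 and 71.1 CPM with vehicle (-0.07 ± 0.03, adjusted p = 0.16). Both pairs of groups overlapped. PSMB6 (0.07 ± 0.02, adjusted p = 0.050) and PSMB7 (0.08 ± 0.03, adjusted p = 0.066) lay just outside the threshold on the higher side, and PSMB5 was at 0.01 ± 0.03 (adjusted p = 0.85). PSME1 (-0.01, adjusted p = 0.82), PSME2 (0.02, adjusted p = 0.71) and PSMC3IP (-0.14 ± 0.08, adjusted p = 0.23) were not called.

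The effect of GSK591 at 96 h was set against that at 24 h in 1 fit of the 12 libraries. Of all 13665 genes tested 24.1% had a called difference, 11% positive and 13.2% negative. Of the members 41.7% had one: 19 negative and 1 positive, with a median difference of -0.17, against -0.01 for all genes. Without PSMC3IP 40.4% had one, 18 negative and 1 positive. The most negative were PSMB10 (-0.54 ± 0.10, adjusted p = 0.0026), PSMG1 (-0.54 ± 0.09, adjusted p = 0.0021) and PSMC3IP (-0.42 ± 0.13, adjusted p = 0.034). PSMD6 was the only positive one called (0.28 ± 0.07, adjusted p = 0.013). PSMB8 (-0.38 ± 0.10, adjusted p = 0.019) and PSMB7 (-0.33 ± 0.08, adjusted p = 0.012) were called, and PSMB9 was not (0.14 ± 0.13, adjusted p = 0.44). By class, negative differences were called in 4 of 8 alpha, 3 of 7 constitutive beta and 2 of 3 immunoproteasome subunits, 2 of 6 ATPases, 4 of 11 other cap subunits, 3 of 7 assembly chaperones and 0 of 5 alternative cap genes by edgeR's test. The difference was called negative in 16 of the 19 members that fell at 96 h. The same 96 h libraries chose these 19 and enter the difference, so this count is a description only. The like share among all genes that fell at 96 h was not counted. PSMG4 was called lower at both times, but its difference was not called (-0.36 ± 0.16, adjusted p = 0.12).

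Vehicle cells at 96 h were compared with vehicle cells at 24 h in the same fit. The times were deposited as separate tables, so time in culture and any batch of a time cannot be told apart, and the vehicle libraries are those of the drug comparisons. Of all genes tested 47.7% were called, 24.2% higher and 23.5% lower at 96 h. Of the members 81.2% were called: 2 were higher and 37 lower, with a median of -0.24, against 0.01 for all genes. The groups did not overlap in 40 members that were lower and 2 that were higher, against 30.8% and 30.3% of all genes (61% in both directions). All 6 ATPases, all 11 other cap subunits and all 7 subunits of the constitutive beta ring fell (6 of the 7 in alternatives that lose PSMB7), with medians of -0.34, -0.27 and -0.24. Of the 7 assembly chaperones 3 fell, and their median was -0.07. Summed CPM of the 47 genes averaged 4712 ± 140.4 at 96 h and 5720 ± 43.7 at 24 h (SD, n = 3 each), a difference of -17.6%.

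The members with the largest falls in this comparison were PSME3, a nuclear cap (-0.61 ± 0.04, adjusted p = 2.3e-07), PSMD1, a scaffold of the 19S cap (-0.56 ± 0.04, adjusted p = 4.2e-07), and PSMC3 (-0.50 ± 0.05, adjusted p = 2.9e-06). PSME3 had 192, 199 and 187 CPM in vehicle at 96 h, against 291, 302 and 293 CPM in vehicle at 24 h. The 2 members that were higher were PSMA8 and PSMB9. PSMA8 had 1.47, 1.10 and 1.61 CPM in vehicle at 96 h, against 0.572, 0.761 and 0.821 CPM in vehicle at 24 h, a log2 fold change of 0.97 ± 0.22. It met the 1 CPM rule through the 96 h libraries alone, so its higher level there is built into its choice and is given as a description. PSMB9 had 11.7, 10.7 and 11.7 CPM in vehicle at 96 h, against 7.01, 7.51 and 6.40 CPM in vehicle at 24 h, and rose by 0.71 ± 0.09 (adjusted p = 2.1e-05). PSMB8 was not called (-0.17 ± 0.07, adjusted p = 0.066), though it was called lower in 6 of 20 alternatives. PSMB10 fell by 0.20 ± 0.07 (adjusted p = 0.030). PSMB5, PSMB6 and PSMB7 fell by 0.27, 0.17 and 0.17 (adjusted p of 0.00020, 0.013 and 0.022), and PSME1 (0.04), PSME2 (-0.06) and PSMC3IP (-0.19) were not called. The calls of PSMB10 and PSMB7 were each lost in 6 of 20 alternatives, with adjusted p up to 0.13 and 0.095. For PSMB10 these were scaling by library totals, the 5 CPM filter and leaving out vehicle replicate 2 or 3 of 24 h or 1 or 3 of 96 h, and for PSMB7 scaling by library totals and leaving out vehicle replicate 1, 2 or 3 of 24 h or 1 or 3 of 96 h.

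**Figure D5:**
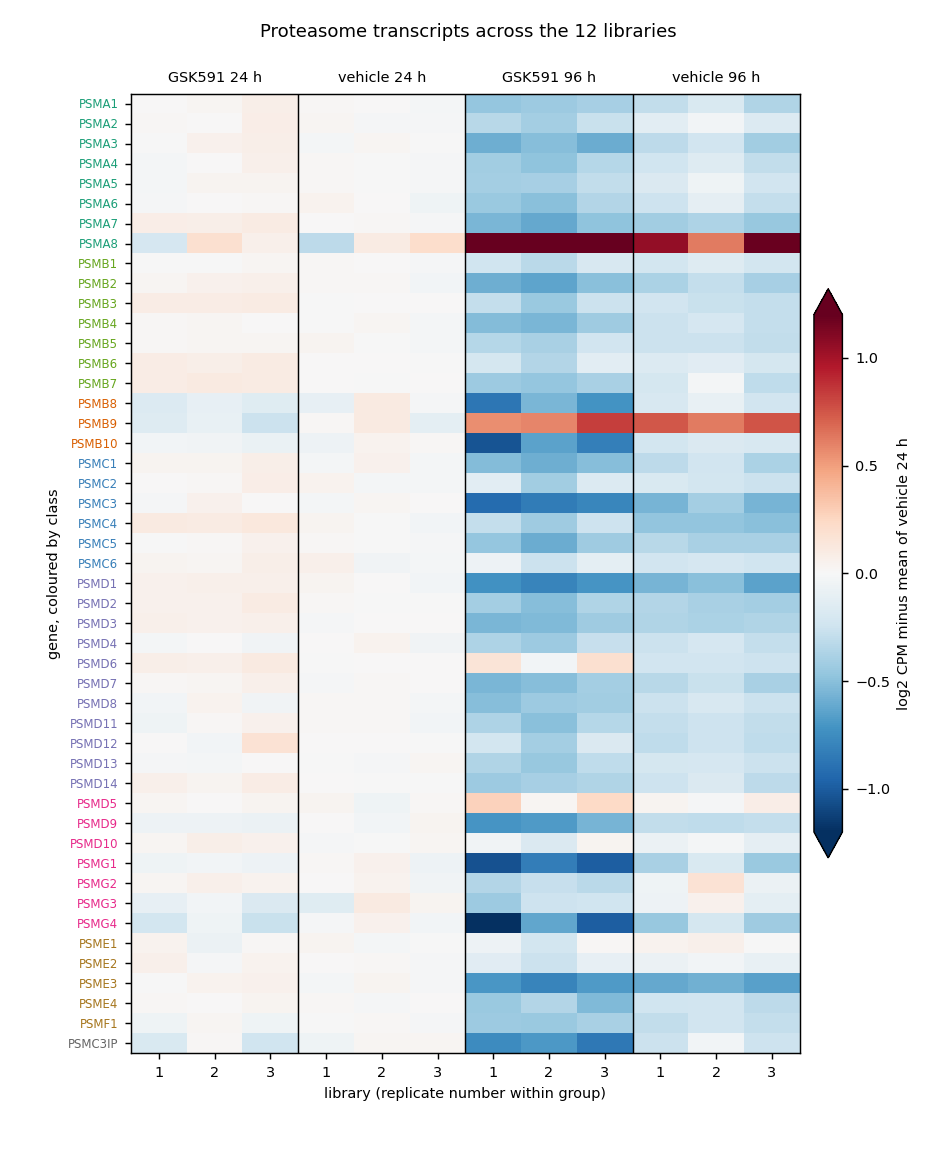
Log2 CPM of each member (rows, labels coloured by class) in each of the 12 libraries (columns, replicates 1 to 3 of each group), minus the mean of the 24 h vehicle libraries; the colour scale ends at 1.2 in each direction and values beyond it have the end colour. Most rows are lower in both 96 h groups than at 24 h, PSMB9 and PSMA8 are higher there, and PSMD6 is lowest in the 96 h vehicle libraries.

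Genes outside the PSM families that belong to the system were counted from 4 lists, to be read against the 14.7% of all genes called at 24 h and the 40.2% at 96 h. Of 13 proteasome genes with other symbols, 1 rose and 1 fell at 24 h, and 1 rose and 3 fell at 96 h (15.4% and 30.8% called). KIAA0368, which encodes the adaptor that clamps the cap to the core, had 42.5, 48.1 and 45.2 CPM with GSK591 at 96 h, against 70.2, 71.6 and 66.3 CPM with vehicle. Its groups did not overlap, and it fell by 0.59 ± 0.06 at 96 h (adjusted p = 0.00055) and by 0.11 ± 0.03 at 24 h (adjusted p = 0.013). USP14, a deubiquitinase on the cap, fell by 0.27 ± 0.05 at 96 h (adjusted p = 0.0058). SHFM1, a small cap subunit named after its value was seen, fell by 0.33 (adjusted p = 0.0061). TXNL1, a thioredoxin bound to the cap, rose by 0.13 ± 0.03 at 24 h (adjusted p = 0.0030) and by 0.20 at 96 h (adjusted p = 0.019).

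Of 11 regulators of proteasome genes, 1 rose at 24 h, and 2 rose and 1 fell at 96 h (9.09% and 27.3% called). NFE2L1 was not called at 24 h (-0.05 ± 0.02, adjusted p = 0.14) or 96 h (-0.12 ± 0.05, adjusted p = 0.096), nor was NFE2L2 (0.02 and -0.10, adjusted p = 0.78 and 0.20). At 96 h NFE2L1 was called lower in 3 of 15 alternatives, and its log2 fold change lay between -0.153 and -0.085 over all 15. SYVN1, an ER ubiquitin ligase that acts on NFE2L1 protein, rose by 0.09 ± 0.03 at 24 h (adjusted p = 0.016) and by 0.37 ± 0.06 at 96 h (adjusted p = 0.0023). MAFK, a partner of the NFE2L factors on DNA, fell by 0.33 ± 0.10 at 96 h (adjusted p = 0.026). Of 18 tested genes for ubiquitin and delivery to the proteasome, 2 rose at 24 h and 3 fell at 96 h (11.1% and 16.7% called). At 24 h these were UBXN1 (0.12, adjusted p = 0.0040) and BAG6 (0.08, adjusted p = 0.026), both cofactors that carry substrates. At 96 h UBA1, the main ubiquitin-activating enzyme, fell by 0.18 ± 0.05 (adjusted p = 0.019), and FAF1, a cofactor of the unfoldase VCP, by 0.18 ± 0.06 (adjusted p = 0.034).

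Of 17 genes for interferon regulation and class I peptide supply, 1 rose and 3 fell at 24 h, and 4 rose and 4 fell at 96 h (23.5% and 47.1% called). At 24 h CALR and ERAP1, a chaperone and a peptide trimmer of the ER, fell by 0.11 (adjusted p = 0.00066) and 0.19 (adjusted p = 0.0021). At 96 h ERAP2, another peptide trimmer, had 87.6, 78.2 and 81.7 CPM with GSK591, against 64.5, 64.7 and 63.6 CPM with vehicle. The groups did not overlap, and ERAP2 rose by 0.38 ± 0.05 (adjusted p = 0.0017). IRF1, which induces immunoproteasome genes, was not called at 24 h (0.00 ± 0.06, adjusted p = 0.97) or 96 h (0.09 ± 0.09, adjusted p = 0.45).

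TAP1, a subunit of the peptide transporter, lies beside PSMB9: their most upstream listed starts are 488 bases apart on opposite strands in GRCh38.p14. TAP1 had 32.7, 28.4 and 33.0 CPM with GSK591 at 96 h, against 26.5, 23.2 and 25.8 CPM with vehicle, and rose by 0.34 ± 0.08 (adjusted p = 0.010). PSMB9 was not called in the same libraries, as given above. In vehicle cells TAP1, like PSMB9, was higher at 96 h than at 24 h (0.31 ± 0.07, adjusted p = 0.0027).

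The 24 h calls named from the 4 lists were all lost with all 12 libraries in 1 fit. That of KIAA0368 was also lost without vehicle replicate 1 or 2 or GSK591 replicate 1 or 3, and that of SYVN1 without vehicle replicate 1 or 2 or GSK591 replicate 1 or with scaling by library totals. BAG6 was lost in 6 of 13 alternatives: scaling by library totals, the fit of 12 libraries and leaving out vehicle replicate 1 or 2 or GSK591 replicate 1 or 3. At 96 h the call of MAFK was lost without vehicle replicate 2 or 3 or GSK591 replicate 1 or 3 (adjusted p up to 0.090), that of UBA1 without vehicle replicate 1 or 3 or GSK591 replicate 1 (up to 0.072), and that of FAF1 without vehicle replicate 1 or 2 or GSK591 replicate 1 or 3 (up to 0.095).

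In the authors' deposited table of the 24 h comparison, 1 member was higher and 2 were lower at an adjusted p under 0.05. Of its 23368 symbols 1811 were called. In the authors' deposited table of the 96 h comparison, 3 members were higher and 18 lower, with 5322 of 23368 symbols called. The fits here tested fewer genes, 13173 at 24 h and 13514 at 96 h, so shares called are not on like sets. Both tables come from the libraries used here and are no independent check.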

How the data were processed

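Poly(A) RNA was sequenced from 12 libraries, 3 for each of 4 groups. The authors deposited raw counts per gene symbol, 1 table for each time, and per the file headers a table for each time with the log2 fold change, average log2 CPM, p-value and adjusted p-value of GSK591 over vehicle. The submitters' processing notes name STAR, HTSeq, edgeR and hg19 (GRCh37). Unstated are tool versions, annotation and strand setting, not given in the sources used here. Reads of antisense or overlapping genes and of processed pseudogenes, which many proteasome genes have, could therefore not be separated. No whole-table column was left unused (0 columns).

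In R 4.3.3, edgeR 4.0.16 was used here to filter the counts (filterByExpr), scale them (TMM) and run its two-sided quasi-likelihood test. P-values were adjusted by Benjamini-Hochberg over all genes tested, and 0.05 was the threshold. All 48 members were tested in every comparison. Each time was fitted with its 6 libraries, the difference and the vehicle comparison with all 12 and 4 group means. The standard error is the size of the log2 fold change over the square root of the F statistic. Biological coefficients of variation were 2.35% at 24 h and 8.19% at 96 h. No pair of replicates agreed within sampling noise: the 12 pairs had a chi-square over its degrees of freedom of 2.26 to 41.9. Same-numbered libraries deviated together in some cases and not in others, and replicate numbers were not used as pairs in the main fits. Per-kilobase levels and ratios used the longest principal transcript of each gene in GENCODE on GRCh38, and no coordinates were taken from these transcripts. The fits were tested on simulated counts.

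The members, lists and tests were chosen with earlier results of these data known. Genes were named by this rule: PSMB5 to PSMB10, PSME1 and PSME2 always; the 6 largest called rises and falls of each drug comparison; the 3 most positive and negative called values of the difference and of the vehicle comparison; NFE2L1, NFE2L2, POMP, TAP1 and IRF1; and the 2 genes of each related list with the smallest p at each time. Some genes of the related lists are not reported here. Other scalings, filters, DESeq2 1.42.0, a replicate block, 1 fit of 12 libraries, a thinned deep library and leaving out libraries were tried as alternatives.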

Additional observations from a re-analysis of the deposited data

Results flagged for a closer look

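The effect of GSK591 differed between the times by a test of the difference itself for 20 of the 48 members. Of all 13665 genes tested, 24.1% had a called difference, 11% positive and 13.2% negative. The log2 fold change at 96 h less that at 24 h was -0.543 for PSMB10, -0.537 for PSMG1, -0.418 for PSMC3IP, -0.376 for PSMB8, -0.360 for PSMG2, -0.337 for PSMC3, -0.329 for PSMB7 and -0.268 for PSMD9. It was -0.260 for PSMA3, -0.257 for PSMC1, -0.242 for PSMB4, -0.237 for PSMB2, -0.233 for PSMA2, -0.211 for PSMD1, -0.208 for PSMA5, -0.197 for PSMD14, -0.193 for PSMA7, -0.188 for PSMD8 and -0.171 for PSMD3. PSMD6 was the 1 positive, at 0.282. PSMD14, PSMA7 and PSMD3 were not called at either time. In edgeR's quasi-likelihood test the adjusted p ranged up to 0.039 (PSMA5), the smallest being 0.0021 (PSMG1). PSMB8 lost this call without vehicle replicate 1 at 24 h (adjusted p = 0.052) or GSK591 replicate 2 at 24 h (0.051), and PSMC3IP lost it without any 1 of 7 single libraries.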

How the results depend on the processing

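No result changed its direction while called under any alternative. The count of members called at 24 h was 4; it was 10 (7 higher) with a replicate block and 0 (0 higher, 0 lower) with all 12 libraries in 1 fit, where 0.212% of all genes were called. The 2 called higher at 24 h were 1 with scaling by library size alone and 4 with DESeq2's size factors. Leaving out 1 library gave 1 to 5 members called at 24 h, 1 to 2 higher and 0 to 3 lower. The count was 1 when either vehicle replicate 2 or 1 of GSK591 replicates 1 and 3 was missing. Over these fits 7.37% to 16.6% of all genes were called. At 96 h, 22 were called. All 12 libraries in 1 fit gave 34 (30 lower), where 54.1% of all genes were called. Leaving out both libraries numbered 2 gave 27 (6 higher), where 60.5% of all genes were called. Leaving out 1 library gave 11 to 27 called, 1 to 5 higher and 9 to 22 lower at 96 h. The count was 12 without vehicle replicate 1, 11 without vehicle replicate 2 and 12 without GSK591 replicate 1. Of all genes, 28.2%, 25.6% and 25.1% were called in these 3 fits, and up to 55% (without GSK591 replicate 2) over all of them. PSMB8, PSMB10, PSMG1, PSMD9 and PSMD6 kept their 96 h calls under all 15 alternatives. Thinning the deep library to 53.6 M left 22 called. For the difference between times (20 called, 1 positive), leaving out 1 library gave 13 to 27 called, 1 to 4 positive and 12 to 24 negative. The count was 13 without any 1 of the 3 vehicle libraries or GSK591 replicate 2 of 24 h. Over these fits 14.4% to 41.5% of all genes had a called difference. The difference gave 4 positive with both libraries numbered 2 left out and 2 with a replicate block, where 43.8% and 30.5% of all genes were called. In the vehicle comparison 1 member was higher, not 2, with a filter of 5 CPM in 3 libraries, which removes PSMA8. Scaling by library size alone gave a summed level of -0.164% at 24 h and -14.1% between vehicle groups. Replicate numbers were not used as pairs in the main fits. Deviations from the group means correlated at 0.02, 0.13 and 0.03 between same-numbered libraries at 24 h and at 0.29, 0.25 and 0.01 at 96 h. Between libraries with unlike numbers they correlated at -0.08 to 0.04 at 24 h and -0.34 to 0.22 at 96 h. An effect shared by same-numbered libraries was not tested. With a replicate block 21.3% of all genes were called at 24 h and 46.6% at 96 h, against 14.7% and 40.2% without. The block gave 23 members called at 96 h, 23 in the difference and 40 in the vehicle comparison. Of all genes 30.5% were called in the difference and 51.5% in the vehicle comparison with the block. The cause of these shifts was not tested. With 3 libraries a group the ratio tests could not pass, and at 24 h the calls rest on small spreads among libraries that may be technical.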
